A study of Mus musculus with 12 samples.

Results

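The complement genes were examined in the proximal thoracic aorta of mice with chronic aneurysm (cPTAA) and of sham-operated mice. The set held 31 genes, chosen by name for their place in the pathway, and all 31 were among the 30130 genes listed. The aneurysm group had 7 libraries, from aortas given periaortic elastase together with BAPN, an inhibitor of lysyl oxidases. The sham group had 5 libraries, from animals given sham surgery and normal water. All animals were male, of the strain written C56BL/6J in the labels, and each library was labelled as the proximal thoracic aorta or its aneurysm. The labels used here do not state age, time after surgery or which animal gave which library, so the p-values below describe variation among these libraries, which may be technical. Elastase and BAPN were given together, so their effects cannot be told apart. Both groups were operated on, and there was no unoperated group.

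Complement is a cascade of plasma and tissue proteins that marks particles and damaged matrix for uptake and can pierce membranes. The classical route starts with C1q and its proteases C1r and C1s, the lectin route with sugar-binding proteins and MASP proteases, and the alternative route with factors B and D and properdin. All routes meet at C3, whose fragments coat targets and call in leukocytes. C5 to C9 then form the terminal membrane attack complex, while soluble and membrane-bound regulators stop the cascade on host cells. In vessel walls, macrophages are known as a source of C1q, and fibroblast-like and fat cells as sources of several other components.

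RNA of whole tissue was sequenced, so fewer cells of a type and less RNA per cell cannot be told apart in any value below. Values are the deposited normalised read counts, at depths of 15238188 to 17493428 recovered reads in cPTAA and 14078885 to 16740960 in sham. The smooth muscle markers of the labelled tissue were present throughout, with a summed count of 65706 to 258809 in cPTAA and 205950.3 to 283420.1 in sham, and 0 of 8 were higher and 3 lower by limma. The count of lower ones was 1 by edgeR, 1 without any 1 of cPTAA 3, 9 and 12 and sham 5, 10 and 11, 0 without sham 8 and sham 11, 0 with the brown adipocyte covariate described below and 5 without cPTAA 6, 7 and 9 and sham 8. Tissue other than aortic wall was also present. Cardiomyocyte markers, a list made after the values were seen, summed to 20207, 24605 and 156759.7 in cPTAA 6, 7 and 9, to 83 to 708 in the other cPTAA libraries and to 502 to 5611 in sham. By limma 0 of these 6 passed, while DESeq2 called 3 higher, and limma called 2 lower without cPTAA 6, 7 and 9 and sham 8. Airway epithelial markers, also listed afterwards, summed to 294605 in sham 8 and 20883 in sham 11, to 34.8 to 2104 in cPTAA and to 5.27 to 60.4 in the other sham libraries. By limma 0 of these 6 passed, while edgeR and DESeq2 called 2 lower, and limma called 1 higher without sham 8, 3 higher without sham 8 and sham 11 and 2 higher without cPTAA 6, 7 and 9 and sham 8. For the complement genes, results are given without these libraries where that changes a call. By limma 12.9% of all tested genes were higher and 11.1% lower, against which the marker counts are to be read. Of 15 macrophage markers 13 were higher (7 with the brown adipocyte covariate) and 0 lower. Their sums were 31095 to 56291 in cPTAA and 6158 to 25771 in sham. Cd163 and Mertk were not called. The highest macrophage sum of sham was in sham 8, where Lyz2 was high, and Marco was at 0 in 4 of the 5 sham libraries. Of 10 brown and 10 white adipocyte markers, 10 and 8 were lower and 0 higher, with brown sums of 2380.4 to 46516 in cPTAA and 35991 to 110361 in sham and white sums of 38769 to 88113 in cPTAA and 75125 to 156372 in sham. Fibroblast markers were higher in 5 of 11 and lower in 2 (sums of 113959 to 228939 in cPTAA and 70547 to 109752 in sham). The count of lower fibroblast markers was 1 without any 1 of cPTAA 2 and sham 1, 5 and 8. It was also 1 without sham 8 and sham 11 and without a filter. With the brown adipocyte covariate no white adipocyte or fibroblast marker was called. Neutrophil markers were higher in 1 of the 8 tested of 11 and lower in 0. Their sums were 136 to 2813 in cPTAA, highest in cPTAA 2, where Ltf was at 2005. In sham 8 their sum was 33653, with Ltf at 33523, and in the other sham libraries 179 to 1631. Mesothelial markers were lower in 2 of 6 (sums of 139 to 1126 in cPTAA and 659 to 8929.99 in sham). By edgeR 4 of them were lower, and limma called 1 higher without cPTAA 6, 7 and 9 and sham 8. Their highest sham sum was also that of sham 8, with Krt19 at 3629.7 and Msln at 2597. Hepatocyte markers were lower in 2 of the 7 tested of 10, Cyp2e1 and Tat. The count of lower ones was 0 without sham 5 and 1 without sham 8 and sham 11. Their sums were 2700.1 to 10633 in cPTAA and 6817 to 24147 in sham. Nearly all of each sum was Cyp2e1, at 2667 to 10615 in cPTAA and 6781 to 24035 in sham. Alb was at 0 to 69.0 in cPTAA and 0 to 4.87 in sham.

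The aneurysms held more transcript of the classical initiators, of the anaphylatoxin receptors and of the receptors for C3 fragments. C3 itself, the membrane regulators and factor D did not pass the test. In the terminal pathway C6 rose while C7 and C8g fell, though the call of C8g was lost in 13 of 21 alternatives. Of the 31 genes, which all passed the filter of at least 1 normalised count in 5 libraries, 18 rose, 2 fell and 11 did not pass (limma, Benjamini-Hochberg adjusted p under 0.05 over all 21415 tested genes). Of all tested genes, 12.9% were called higher and 11.1% lower (2754 and 2374). In 13 of the 31 genes every cPTAA value lay above every sham value, and in 1 every cPTAA value lay below, where 8.02% and 4.95% of all tested genes did so. The median log2 fold change was 1.38 over the 31 genes and -0.05 over all tested genes. When the libraries were scaled to their totals alone with edgeR, the median of all genes moved to 0.12, 3387 genes were higher and 1663 lower, and of the complement genes 20 were higher and 1 lower.

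**Figure D1:**
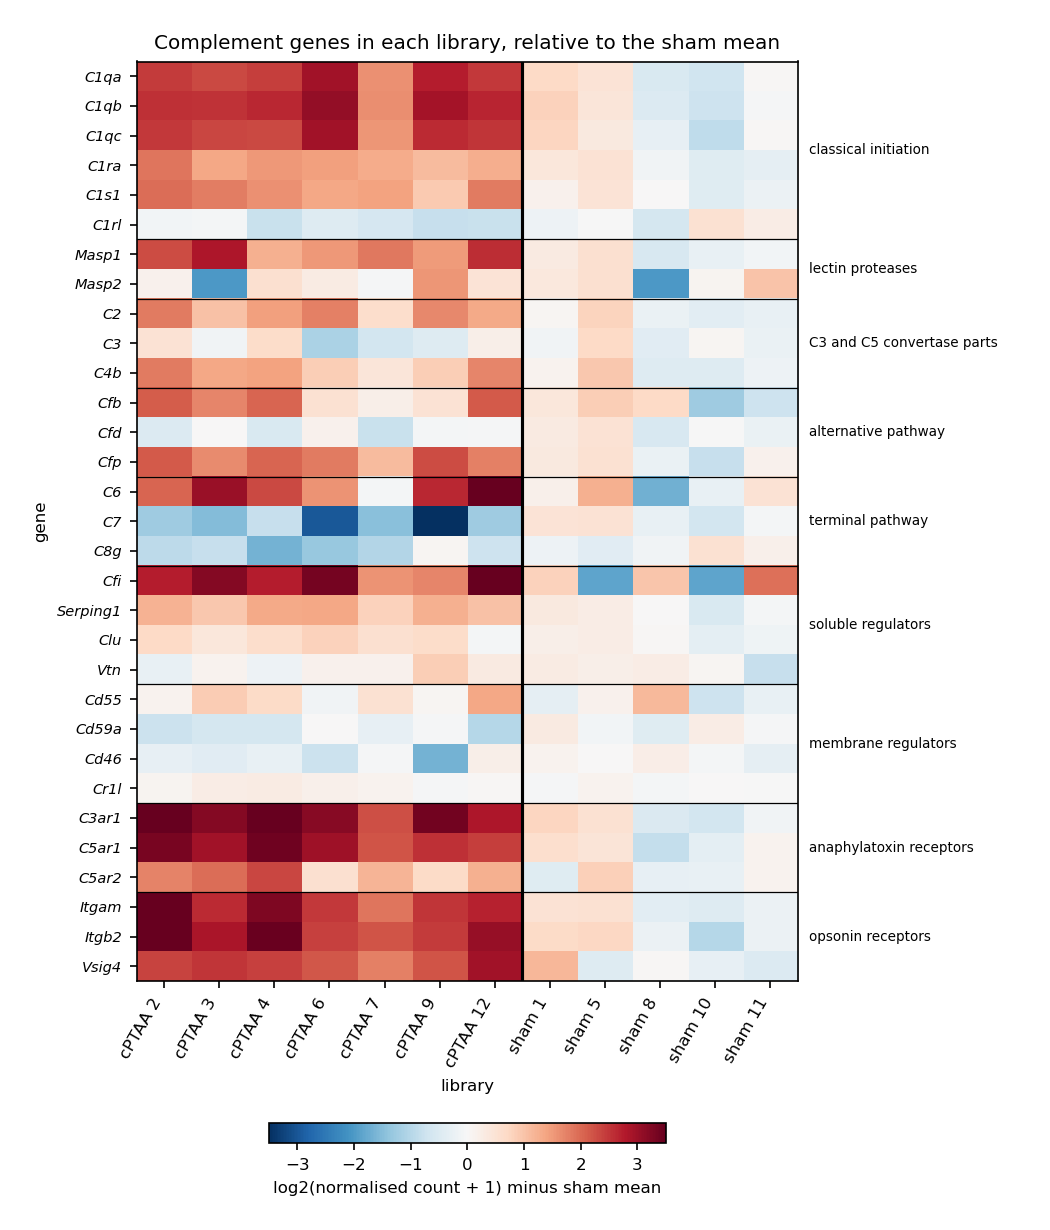
Each row is a complement gene, grouped by role, and each column a library, with the 7 cPTAA libraries left of the 5 sham libraries. Colour is log2(normalised count + 1) minus the gene's sham mean, and it saturates at the ends of the bar. C1qa to C1s1 and the receptors C3ar1, C5ar1, Itgam, Itgb2 and Vsig4 are red in all 7 cPTAA libraries, while C7 is blue in all 7.

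A fit with the score of the 10 brown adipocyte markers as a covariate left 6 of the 20 calls in place, those of C1qa, C1qb, C1qc, C3ar1, C5ar1 and Itgam. The score was 8.95 ± 0.97 in cPTAA and 11.46 ± 0.57 in sham (SD, n = 7 and 5), so it moves with the groups, and the median SE over all tested genes was 0.52 with it and 0.30 without it. Among all genes 276 then rose and 101 fell. The part of the fat content in each change was not tested.

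**Figure D2:**
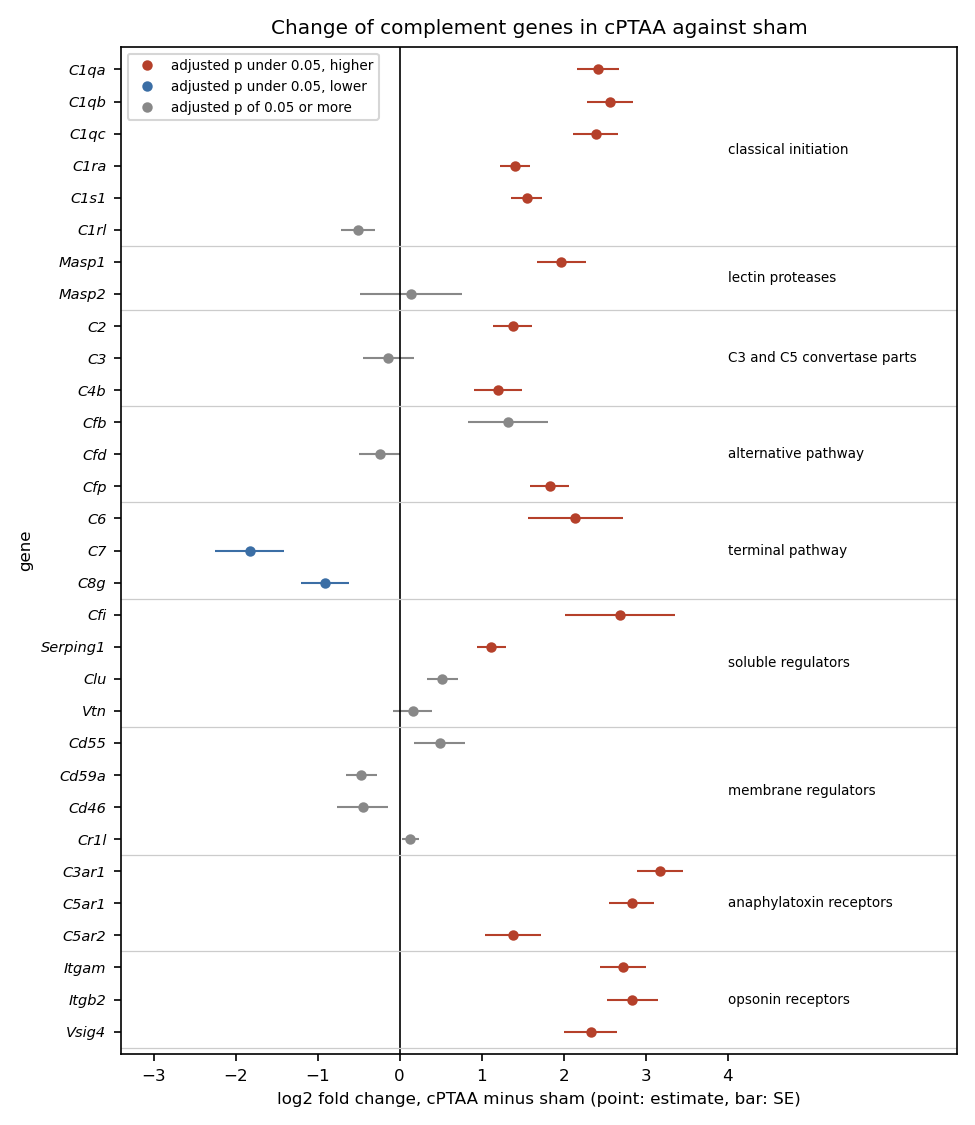
Points are the log2 fold change of each complement gene, cPTAA minus sham, and bars are the SE (n = 7 and 5); colours show which genes passed an adjusted p of 0.05. C3ar1 has the largest rise at 3.18 and C7 the largest fall at -1.83.

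Per kb of exon, the most abundant of these transcripts in both groups was Cfd, the adipose protease adipsin, at a mean level of 28264 normalised counts per kb in cPTAA and 33818 in sham. Serping1, which encodes the C1 inhibitor, came next in cPTAA (7209 per kb in cPTAA and 3351 in sham). C1qa and C1qb followed at 7073 and 6690.1 per kb in cPTAA, against 1368 and 1167 in sham. C3 stood at 4146 per kb in cPTAA and 4382 in sham, which is rank 6 in cPTAA and rank 2 in sham. The lowest level was that of Masp2 at 1.32 per kb in cPTAA and 1.17 in sham.

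**Figure D3:**
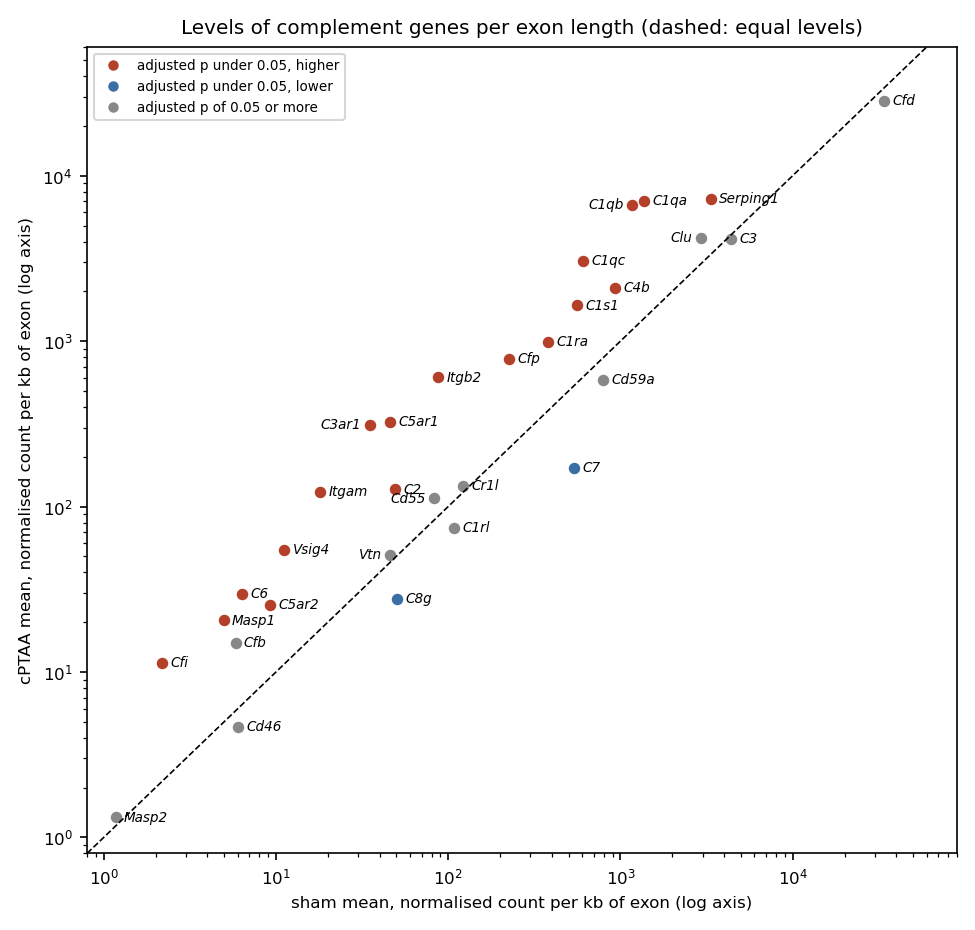
Each point is a complement gene, with its mean level in cPTAA on the vertical axis and in sham on the horizontal axis, both as normalised counts per kb of exon on log axes. The C1q chains, C3ar1, C5ar1, Itgam and Itgb2 lie well above the dashed line of equal levels, Cfd, C3 and Cr1l lie near it, and C7 lies below it.

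The 3 chains of C1q, the recognition unit that binds immune complexes, dying cells and matrix, rose together. C1qa ran from 4004 to 10248 normalised counts in cPTAA with a median of 7203, and was at 2141, 1857, 925, 816 and 1372 in sham 1, 5, 8, 10 and 11. C1qb ran from 3659.6 to 9952 in cPTAA (median 7379) and was at 2051, 1592, 849.6, 706 and 1149.9 in the same sham libraries. C1qc ran from 3182 to 8314 in cPTAA (median 6039.9) and was at 1852, 1380.1, 901, 594 and 1131 in sham. For each chain cPTAA 7 was the lowest and cPTAA 6 the highest of the aneurysms, and no cPTAA value reached the sham range. The log2 fold changes were 2.42 ± 0.26 (C1qa, adjusted p = 1.95e-05), 2.57 ± 0.28 (C1qb, adjusted p = 1.71e-05) and 2.39 ± 0.27 (C1qc, adjusted p = 2.29e-05), each ± SE.

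The C1q genes are neighbours on mouse chromosome 4, and the 250 bases before the starts of C1qb and C1qc are shown because these genes moved together. The sequences are from RefSeq on build GRCm38.p6, read in the direction of the gene (minus strand), while the processing notes name GRCm39. The window before C1qb is chr4:136886201-136886450 and that before C1qc is chr4:136892915-136893164. Capitals mark GAGGAA or its reverse complement TTCCTC, the core bound by the myeloid factor PU.1.
C1qb: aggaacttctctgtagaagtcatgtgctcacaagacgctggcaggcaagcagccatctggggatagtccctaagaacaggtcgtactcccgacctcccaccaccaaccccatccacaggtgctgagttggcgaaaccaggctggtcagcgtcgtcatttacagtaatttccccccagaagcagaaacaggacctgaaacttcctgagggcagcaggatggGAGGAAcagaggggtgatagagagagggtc
C1qc: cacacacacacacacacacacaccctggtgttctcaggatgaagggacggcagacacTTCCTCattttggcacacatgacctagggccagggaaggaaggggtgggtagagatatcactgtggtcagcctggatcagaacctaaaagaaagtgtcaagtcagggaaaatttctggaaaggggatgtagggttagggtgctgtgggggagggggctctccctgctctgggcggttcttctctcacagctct
Each window held 1 such core, on opposite strands. RefSeq windows were at hand for 22 of the 31 genes, and 6 of these held the core (C1qb, C1qc, C5ar2, Cd59a, Itgam and Vsig4). By window the share was 24.0% of 25, close to the 23.3% of all 32851 windows of that length. The AP-1 motif TGANTCA was in 8.0% of the 25 windows and 6.75% of all windows. Both strands were searched.

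C1r and C1s, the proteases that C1q switches on, rose as well. C1ra ran from 2362 to 4048 in cPTAA (median 2825) and was at 1433, 1562, 1005, 812 and 876 in sham 1, 5, 8, 10 and 11. C1s1 ran from 3237 to 6619 in cPTAA (median 5215) and was at 1907, 2412, 1721, 1285 and 1478 in sham. Neither gene overlapped between the groups, and cPTAA 9 was the lowest of the aneurysms for both. The log2 fold changes were 1.41 ± 0.18 for C1ra (adjusted p = 7.1e-05) and 1.55 ± 0.19 for C1s1 (adjusted p = 5.84e-05), and both lost their calls with the brown adipocyte covariate (1.22 and 0.95, adjusted p = 0.0804 and 0.119, the highest of ranges from 4.14e-10 and 6.82e-12). Their close copies C1rb and C1s2, between which reads could be split, stood at 15.7 ± 23.9 and 7.37 ± 5.07 in cPTAA and 27.0 ± 54.5 and 2.09 ± 1.69 in sham. Within a library, C1qa minus C1s1 was 0.50 ± 0.61 on the log2 scale in cPTAA and -0.37 ± 0.42 in sham, a difference of 0.87 (two-sided exact permutation p = 0.0177, adjusted p = 0.0236 over 8 such differences, n = 7 and 5). That call was lost without sham 5 or sham 10 (adjusted p = 0.0566 each) and without sham 8 and sham 11 together (0.0762), over a range of 0.0162 to 0.0857. C1rl, the C1r-like protease, was at 179 to 298 in cPTAA and 205 to 455 in sham (log2 fold change -0.51 ± 0.21, adjusted p = 0.088, and 0.0248 without sham 8).

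Relative to the mean of the macrophage markers, no difference in C1qa was detected, and this depends on the markers chosen. The mean includes Cd163 and Mertk, which were not called (log2 fold changes -0.37 and -0.12). The median log2 fold change of the 15 markers was 2.91, against 2.42 for C1qa. The difference of C1qa from the mean log2 level of the 15 markers was 2.77 ± 0.33 in cPTAA and 2.78 ± 0.37 in sham (SD, n = 7 and 5). The change in that difference was -0.02 (two-sided exact permutation p = 0.934, adjusted p = 0.934), and it was at 0 or above without any 1 of cPTAA 2, 4, 7 and 12 and sham 1, 5 and 11 (-0.16 to 0.06 over the libraries left out in turn). It was -0.20 with a pseudocount of 0.1 (adjusted p = 0.386) and -0.34 without cPTAA 6, 7 and 9 and sham 8 (adjusted p = 0.0857, exact permutation).

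C4 and C2, which join into the C3-cleaving enzyme of the classical and lectin routes, rose, and C3, its substrate, did not pass. C2 ran from 282 to 642 in cPTAA (median 495) and was at 192, 311, 156, 142 and 151 in sham 1, 5, 8, 10 and 11, so that only sham 5 reached into the cPTAA range. C4b ran from 6619 to 17571 in cPTAA (median 12518) and was at 5426, 9562, 3581, 3608 and 4399 in sham, again with sham 5 alone inside the cPTAA range. C3 ran from 10029 to 33836 in cPTAA (median 19883) and was at 19741, 35170.4, 16369, 22889.8 and 18506 in sham. The highest C3 value of all was that of sham 5, and cPTAA 6, 7 and 9, which carried cardiomyocyte transcripts, had the lowest. The log2 fold changes were 1.38 ± 0.24 for C2 (adjusted p = 0.000665), 1.2 ± 0.29 for C4b (adjusted p = 0.00681) and -0.14 ± 0.31 for C3 (adjusted p = 0.785). The sign of C3 turned without cPTAA 6, without sham 5, without cPTAA 6, 7 and 9 and sham 8, and with scaling to totals (0.02, 0.03, 0.20 and 0.06). C2 and C4b lost their calls with the brown adipocyte covariate (1.27, adjusted p = 0.135, and 0.56, adjusted p = 0.524), and C4b also without sham 8 and sham 11 (0.99, adjusted p = 0.0663), where the lowest adjusted p over the alternatives was 2.09e-06 for C2 and 0.000677 for C4b. C4a, a close copy of C4b, was at 15.9 ± 6.63 in cPTAA and 11.9 ± 3.55 in sham, and C2 overlaps Zbtb12 on the other strand, which cannot be told apart without a strand setting.

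**Figure D4:**
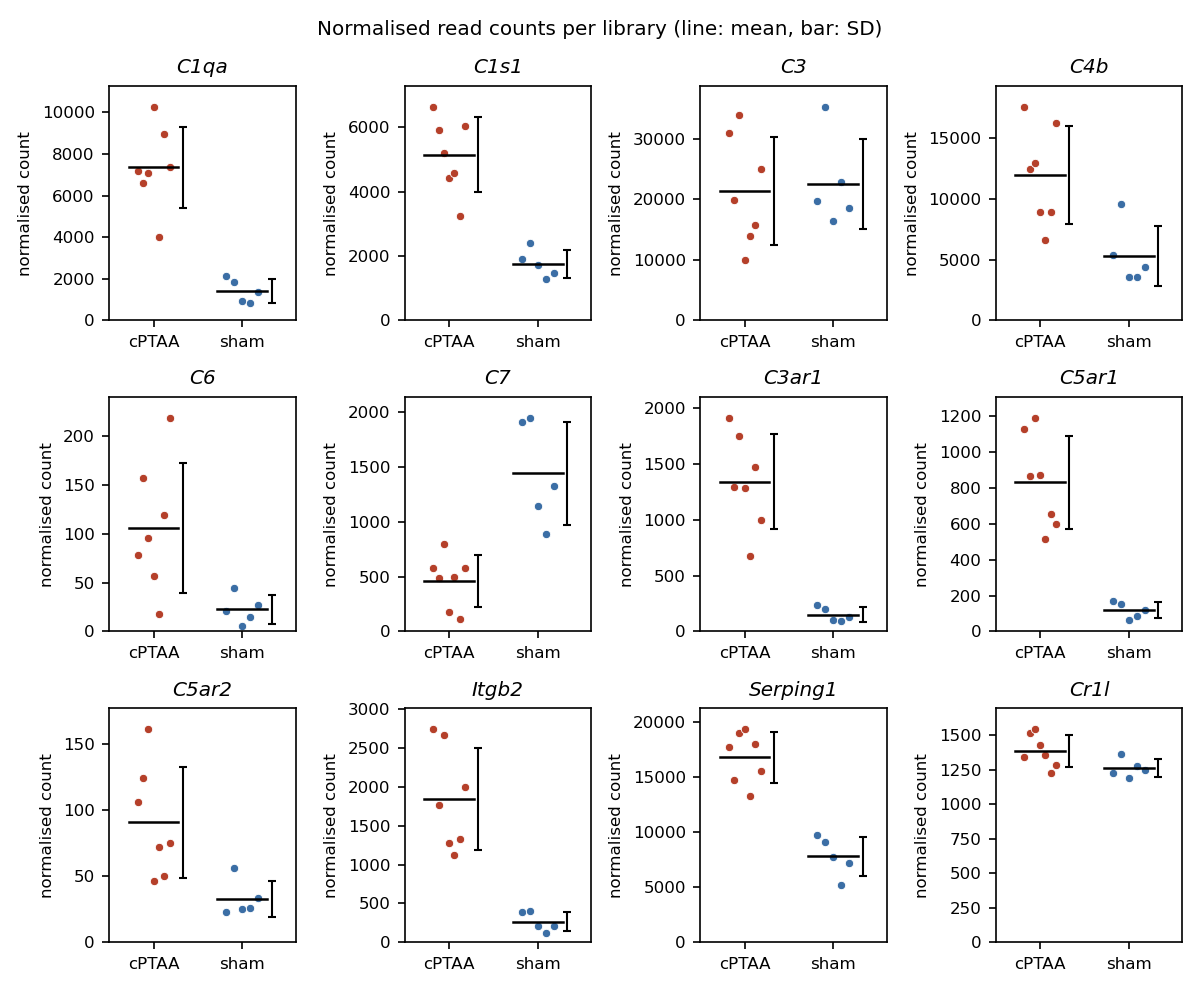
Points are the normalised counts of 12 complement genes in each library, cPTAA left and sham right, with the mean as a line and the SD as a bar (n = 7 and 5); the vertical axes start at 0. C1qa, C1s1, C3ar1, C5ar1, Itgb2 and Serping1 are higher in cPTAA with no overlap, C7 is lower with none, and C3 and Cr1l overlap.

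On the lectin route, Masp1 rose and Masp2 was barely detected. Masp1, which encodes lectin route proteases and one that activates factor D, ran from 112 to 341 in cPTAA (median 169.9) and was at 59.0, 70.1, 31.6, 39.1 and 44.2 in sham 1, 5, 8, 10 and 11, with no overlap. Its log2 fold change was 1.97 ± 0.30 (adjusted p = 0.000259), and the call was lost with the brown adipocyte covariate (1.56, adjusted p = 0.138, range 6.9e-09 to 0.138). The gene spans of Masp1 and Rtp4, a gene at a mean of 939 normalised counts, overlap on opposite strands. Masp2, which cleaves C4 and C2, was at 0 to 10.8 in cPTAA and 0 to 6.98 in sham, too few reads to show a difference (log2 fold change 0.14 ± 0.62, adjusted p = 0.897). It overlaps Tardbp on the other strand, a gene at a mean of 1970 normalised counts. How reads of that overlap were counted is not known.

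Of the alternative route, properdin rose while factor D and factor B did not pass. Cfp, which encodes properdin, the leukocyte-made stabiliser of the alternative C3 convertase, ran from 797 to 1816 in cPTAA (median 1305) and was at 474, 538, 318, 212 and 414 in sham 1, 5, 8, 10 and 11, with no overlap. Its log2 fold change was 1.83 ± 0.24 (adjusted p = 7.34e-05), and with the brown adipocyte covariate it was 1.85 (adjusted p = 0.0577, the highest of a range from 3.72e-11). Cfb, whose product carries the protease of that convertase, ran from 16.4 to 65.5 in cPTAA (median 48.5) and was at 19.0, 26.3, 23.4, 5.43 and 8.15 in sham. The 3 lowest cPTAA values of Cfb were those of cPTAA 6, 7 and 9, which lay inside the sham range, and the other 4 lay above it. The log2 fold change of Cfb was 1.32 ± 0.49 (adjusted p = 0.0616), it passed in 8 of 21 alternatives (2.17, adjusted p = 0.00373 without cPTAA 6, 7 and 9 and sham 8), and the brown adipocyte covariate turned its sign (-0.33, adjusted p = 0.824).

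Cfd, whose product cleaves factor B and is secreted mainly by fat cells, was at 17546 to 33383 in cPTAA (median 28580.3) and at 37457, 42475, 20338, 30121 and 25511 in sham 1, 5, 8, 10 and 11. The groups overlapped, and the log2 fold change was -0.24 ± 0.25 (adjusted p = 0.525). The 10 white adipocyte markers, Cfd not among them, had a median log2 fold change of -1.30, with Adipoq at 4130.4 ± 1054 in cPTAA and 10381 ± 3095 in sham. By limma 8 of the 10 were lower. Lep (log2 fold change 0.24, limma adjusted p = 0.694) and Retn (-0.58, limma adjusted p = 0.143) were not called. Cfd minus the mean log2 level of all 10 markers was 3.54 ± 0.36 in cPTAA and 2.69 ± 0.24 in sham. The difference was 0.86, with no overlap between the groups. The two-sided exact permutation p was 0.00253, the smallest that 792 splits can give (adjusted p = 0.00673, n = 7 and 5).

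In the terminal pathway C6 and C7, whose products join C5b in sequence, moved in opposite directions. C6 ran from 17.4 to 218 in cPTAA (median 95.7) and was at 21.1, 44.8, 5.09, 15.2 and 26.8 in sham 1, 5, 8, 10 and 11. Only cPTAA 7 lay inside the sham range of C6, and cPTAA 12 was the highest. C7 ran from 117 to 795 in cPTAA (median 497) and was at 1910.3, 1946, 1145, 891 and 1327 in sham, with every aneurysm below every sham library. The lowest C7 values were those of cPTAA 9 and cPTAA 6. The log2 fold changes were 2.14 ± 0.58 for C6 (adjusted p = 0.0143) and -1.83 ± 0.42 for C7 (adjusted p = 0.00529). With the brown adipocyte covariate both lost their calls (1.76, adjusted p = 0.351, range 0.00023 to 0.351 for C6, and -2.91, adjusted p = 0.0598, range 0.000199 to 0.0598 for C7), and C6 also without sham 8 and sham 11 (1.76, adjusted p = 0.0714).

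Within a library C6 minus C7 was -2.18 ± 1.53 on the log2 scale in cPTAA and -6.15 ± 0.88 in sham. Only in cPTAA 9 did the values meet, with C6 minus C7 at 0.02. The difference between the groups was 3.97, with no overlap (two-sided exact permutation p = 0.00253, adjusted p = 0.00673, n = 7 and 5). Per kb of exon the mean levels were 29.8 for C6 and 172 for C7 in cPTAA, against 6.35 and 539.5 in sham. The 250 bases before each start are shown because these genes of like function lie on chromosome 15 and moved apart. The window of C6 (plus strand) is chr15:4726960-4727209 and that of C7 (minus strand) is chr15:5063774-5064023. Both are from RefSeq on GRCm38.p6, and capitals would mark the PU.1 core.
C6: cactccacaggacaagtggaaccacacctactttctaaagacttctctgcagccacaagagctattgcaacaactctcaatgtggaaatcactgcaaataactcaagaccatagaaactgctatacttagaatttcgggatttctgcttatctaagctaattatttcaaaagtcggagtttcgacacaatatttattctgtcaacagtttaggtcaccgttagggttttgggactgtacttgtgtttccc
C7: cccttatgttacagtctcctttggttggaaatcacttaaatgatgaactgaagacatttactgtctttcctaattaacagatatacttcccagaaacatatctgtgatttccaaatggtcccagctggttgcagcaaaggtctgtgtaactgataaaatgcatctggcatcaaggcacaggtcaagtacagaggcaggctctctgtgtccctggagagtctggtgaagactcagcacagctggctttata
Neither window held GAGGAA or TGANTCA, and their GC contents were 40.0% and 43.2%, against 55.2% and 54.0% before C1qb and C1qc.

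C8g, the lipocalin-like chain of C8, was at 22.5 to 77.5 in cPTAA (median 38.8) and at 64.3, 55.5, 67.2, 106 and 83.8 in sham 1, 5, 8, 10 and 11, where only cPTAA 9 reached the sham range. Its log2 fold change was -0.91 ± 0.29 (adjusted p = 0.0352). The call was lost in 13 of 21 alternatives (adjusted p from 0.00609 to 0.655), among them without any 1 of cPTAA 2, 3, 4, 6 and 7 and sham 1, 10 and 11, without sham 8 and sham 11, by edgeR, without a filter and with the brown adipocyte covariate. In 12 of the 13 the log2 fold change was -0.96 to -0.75, and with the covariate it was -0.44. C8g overlaps Fbxw5 on the other strand, a gene at a mean of 1170 normalised counts, and reads of the pair cannot be told apart.

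Among soluble regulators, the C1 inhibitor and factor I rose. Serping1, which encodes the C1 inhibitor, the blocker of C1r, C1s and MASP proteases, ran from 13252 to 19307 in cPTAA (median 17662) and was at 9696, 9076, 7709, 5240.1 and 7229.96 in sham 1, 5, 8, 10 and 11, with no overlap. Its log2 fold change was 1.12 ± 0.18 (adjusted p = 0.000459). Cfi, whose product cuts C3b and C4b, ran from 9.66 to 40.6 in cPTAA (median 23.4) and was at 5.27, 0, 6.11, 0 and 12.8 in sham. Only sham 11 reached the range of the aneurysms. Its log2 fold change was 2.69 ± 0.67 (adjusted p = 0.00874) and depends on the pseudocount at these low values, being 4.06 with 0.1 in place of 1. Both lost their calls with the brown adipocyte covariate (1.05, adjusted p = 0.111, range 4.08e-09 to 0.111 for Serping1, and 1.25, adjusted p = 0.551, range 0.00179 to 0.551 for Cfi).

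Clu and Vtn encode clusterin and vitronectin, which keep the forming attack complex out of membranes. Clu was at 9486 to 17478 in cPTAA (median 15103) and at 11353, 11947, 10198, 7852 and 8925 in sham 1, 5, 8, 10 and 11. Only cPTAA 12 lay inside the sham range. The log2 fold change of Clu was 0.52 ± 0.19 (adjusted p = 0.0543), and it passed without cPTAA 12 (0.62, adjusted p = 0.0137), by DESeq2 (0.012) and by edgeR (0.0241 with TMM and 0.0111 with totals), over a range up to 0.186. Vtn, at 75.1 to 163 in cPTAA and 51.2 to 109.6 in sham, had a log2 fold change of 0.16 ± 0.24 (adjusted p = 0.673).

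None of the 4 membrane regulators passed the test with limma over all 12 libraries. At an unadjusted p under 0.05 there was 1, Cd59a, and edgeR and DESeq2 also left the adjusted p of all 4 above 0.05. Cr1l, the rodent regulator Crry, had the smallest relative spread of the 31 genes, with a coefficient of variation of 8.34% in cPTAA and 5.24% in sham. It was at 1229 to 1542 in cPTAA (median 1359.6) and at 1225, 1366, 1193, 1276 and 1247 in sham 1, 5, 8, 10 and 11 (log2 fold change 0.13 ± 0.10, adjusted p = 0.383). Cd55, whose product speeds the decay of C3 convertases, was at 330.3 to 926 in cPTAA (median 521) and at 293, 404, 799.7, 221 and 300.3 in sham. Its highest sham value was in sham 8, the library with airway transcripts, and without it Cd55 passed (log2 fold change 0.78, adjusted p = 0.0454, against 0.49 ± 0.31 and 0.271 with it). It also passed with cPTAA 6, 7 and 9 and sham 8 left out (1.03, adjusted p = 0.00984). With the brown adipocyte covariate its sign turned (-0.75). Cd59a, whose product blocks the last step of the attack complex, was at 711 to 1427 in cPTAA (median 929) and at 1761, 1310, 1046, 1684 and 1375 in sham, and was lowest in cPTAA 12. Its log2 fold change was -0.47 ± 0.19 (adjusted p = 0.0916), and it passed without cPTAA 6, cPTAA 9 or sham 8 (adjusted p = 0.0479, 0.0401 and 0.0472) and with all of cPTAA 6, 7, 9 and sham 8 left out (-0.85, adjusted p = 0.000775), while the covariate turned its sign (0.32). Cd55 minus Cd59a differed by 0.96 between the groups (two-sided exact permutation p = 0.101, adjusted p = 0.115), and by 1.35 without sham 8 (adjusted p = 0.0323, range 0.0323 to 0.256). Without cPTAA 6, 7 and 9 and sham 8 it differed by 1.88 (exact permutation, adjusted p = 0.0571). Cd46, in mice best known from sperm, was at 13.7 to 52.6 in cPTAA and 36.1 to 54.0 in sham (log2 fold change -0.45 ± 0.31, adjusted p = 0.325). It overlaps A330023F24Rik on the other strand, a gene at a mean of 104 normalised counts.

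The receptors for the anaphylatoxins, the small fragments of C3 and C5 that attract and activate leukocytes, all rose. C3ar1 ran from 674 to 1907 in cPTAA (median 1295) and was at 235, 203, 98.8, 89.0 and 128 in sham 1, 5, 8, 10 and 11. C5ar1 ran from 513 to 1187 in cPTAA (median 863) and was at 168, 153, 62.1, 86.8 and 121 in sham. For both genes cPTAA 7 was the lowest aneurysm and still lay above all 5 sham libraries. C5ar2, the second C5a receptor, which does not couple to G proteins, ran from 46.3 to 161 in cPTAA (median 74.8) and was at 23.2, 56.5, 25.5, 26.0 and 33.8 in sham. Here cPTAA 6 and cPTAA 9 lay below sham 5. The log2 fold changes were 3.18 ± 0.28 for C3ar1 (adjusted p = 5.25e-06), 2.83 ± 0.27 for C5ar1 (adjusted p = 7.53e-06) and 1.38 ± 0.34 for C5ar2 (adjusted p = 0.0082), and the last lost its call with the brown adipocyte covariate (1.21, adjusted p = 0.281, range 0.000555 to 0.281).

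Transcript levels of C5ar1 relative to C5ar2, and of C3ar1 relative to C3, differed between the groups. C3 alone had a log2 fold change of -0.14 and C3ar1 of 3.18, and C3 fragments were not measured. C5ar1 exceeded C5ar2 by 3.25 ± 0.54 log2 units in cPTAA and 1.80 ± 0.60 in sham, a difference of 1.45 (two-sided exact permutation p = 0.00505, adjusted p = 0.0101, n = 7 and 5). The highest sham value, 2.80 in sham 1, lay just above the lowest cPTAA value of 2.79 in cPTAA 3. C3ar1 minus C3 was -3.94 ± 0.58 on the log2 scale in cPTAA and -7.27 ± 0.58 in sham, a difference of 3.32 with no overlap (two-sided exact permutation p = 0.00253, adjusted p = 0.00673). Set against the mean of the macrophage markers, C3ar1 was at 0.29 ± 0.32 in cPTAA and -0.45 ± 0.35 in sham, a difference of 0.74 (two-sided exact permutation p = 0.00758, adjusted p = 0.0121). That mean includes Cd163 and Mertk, which were not called (log2 fold changes -0.37 and -0.12). Single markers ran from -0.37 for Cd163 to 4.22 for Cx3cr1, with a median of 2.91 against 3.18 for C3ar1. The C5ar1 and the macrophage comparison lost their calls without sham 8 and sham 11 (1.27 and 0.60, adjusted p = 0.0667 each, range 0.00866 to 0.0857), where 120 splits allow no p below 0.0167.

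**Figure D5:**
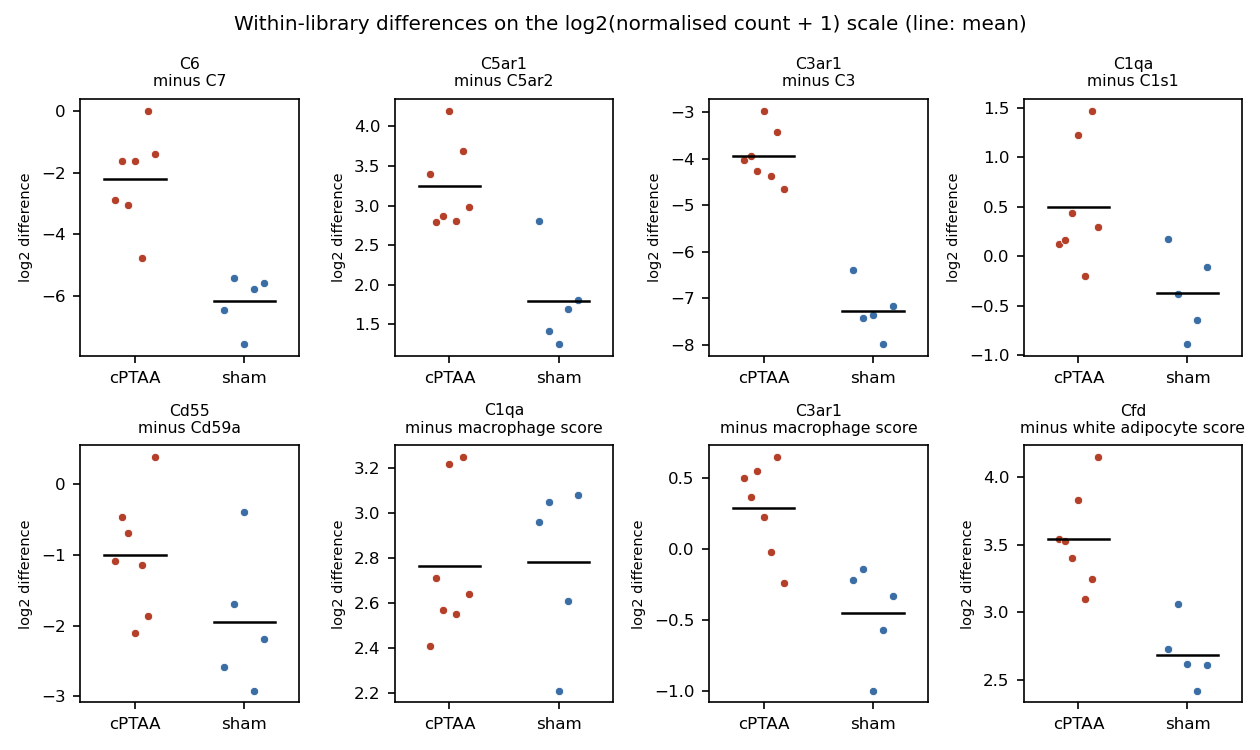
Each panel shows, per library, the difference of log2(normalised count + 1) between a pair of genes, or between a gene and the mean of a marker list, with cPTAA left, sham right and the group mean as a line. C6 minus C7, C3ar1 minus C3 and Cfd minus the white adipocyte score are higher in every cPTAA library than in any sham library, while C1qa minus the macrophage score overlaps.

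The receptors for C3 fragments on phagocytes rose as well. Itgam, the alpha chain of complement receptor 3, ran from 321 to 1068 in cPTAA (median 536) and was at 123, 126, 67.2, 62.9 and 75.7 in sham 1, 5, 8, 10 and 11. Itgb2, the beta chain it shares with other leukocyte integrins, ran from 1121 to 2737 in cPTAA (median 1769) and was at 385, 403, 209, 122 and 212 in sham. Vsig4, a C3 fragment receptor of resident macrophages, ran from 53.1 to 119.99 in cPTAA (median 81.1) and was at 34.8, 10.7, 15.3, 11.9 and 10.5 in sham. None of the 3 overlapped between the groups, and cPTAA 7 was the lowest aneurysm for each. The log2 fold changes were 2.72 ± 0.28 for Itgam (adjusted p = 1.29e-05), 2.84 ± 0.31 for Itgb2 (adjusted p = 1.71e-05) and 2.33 ± 0.32 for Vsig4 (adjusted p = 9.76e-05). With the brown adipocyte covariate Itgb2 was at 2.27 (adjusted p = 0.0575) and Vsig4 at 1.78 (adjusted p = 0.113), the highest of ranges from 1.35e-16 and 4.88e-10. Macrophage markers rose in the same libraries, with sums as given above, and their part in these changes was not tested.

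Of 33 further complement genes on a list drawn up with earlier results of these data known, 28 were listed and 21 were tested. Of the 21 tested, 6 rose and 2 fell, where 12.9% of all tested genes rose and 11.1% fell. Their median log2 fold change was 0.44. Itgax, the alpha chain of complement receptor 4 and a partner of Itgb2, ran from 271 to 815 in cPTAA (median 464) and from 11.9 to 75.0 in sham (log2 fold change 3.65 ± 0.40, adjusted p = 1.96e-05). Ptx3, a pentraxin that binds C1q, ran from 139 to 1092 in cPTAA (median 279.5) and from 14.1 to 39.7 in sham (3.57 ± 0.44, adjusted p = 4.53e-05). Colec11, a collectin of the lectin route, ran from 142 to 348 in cPTAA (median 207) and from 43.1 to 87.5 in sham (1.70 ± 0.27, adjusted p = 0.000321). Csmd1, a membrane regulator, had a log2 fold change of 1.91 ± 0.44 (adjusted p = 0.00544), and the other rises were Colec10 and Fcna. The falls were Cpn2, a subunit of the carboxypeptidase that trims anaphylatoxins, at 132 ± 113 in cPTAA and 406 ± 141 in sham (-2.05 ± 0.60, adjusted p = 0.0216), and Cd59b, a close copy of Cd59a, at 35.8 ± 6.16 in cPTAA and 59.2 ± 14.0 in sham (-0.69 ± 0.24, adjusted p = 0.0496). With the brown adipocyte covariate 1 of the 6 rises and 0 falls were left, and the falls were 0 without sham 10, without sham 11 and without sham 8 and sham 11. The rises numbered 9 without cPTAA 9. Without cPTAA 6, 7 and 9 and sham 8 there were 9 rises and 3 falls. Transcripts of C5 and C9 were near 0, with Hc (C5) at 0 to 8.31 in cPTAA and 0 to 3.90 in sham and C9 at 0 to 1.97 in cPTAA and 0 to 2.33 in sham, levels at which a difference was not detectable.

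Across the aneurysm libraries the complement genes did not all share the same highest or lowest library, and their covariation was not tested. Among the 18 that rose, cPTAA 7 was the lowest aneurysm for 14, and cPTAA 2 was the highest for 7, cPTAA 6 for 4 and cPTAA 12 for 3. The macrophage marker sum was also lowest in cPTAA 7, at 31095. The fold between the highest and the lowest aneurysm was 1.25 for Cr1l, 1.46 for Serping1, 2.56 for C1qa, 6.81 for C7 and 12.5 for C6. In sham, sham 5 was highest for 16 of the 31 genes and sham 10 lowest for 15. How often each library was the extreme among all tested genes was not counted.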

How the data were processed

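RNA from 7 cPTAA and 5 sham libraries was sequenced in bulk after poly(A) selection, per the labels' protocols. The submitters' processing notes name the build GRCm39 and the tools featureCounts 1.5.0-p3, HISAT2 2.0.5 and StringTie. How strands were counted, how values were scaled and whether genes were filtered is not given in the sources used here. The deposited signal per gene is a read count divided by 1 factor per library by the authors. Checked on the values, 100% were whole reads within 0.02 reads, with 0.863 to 1.16 units per read. Depth was 15238188 to 17493428 reads in cPTAA and 14078885 to 16740960 in sham, and low genes rest on few reads.

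Groups and library numbers came from the titles. Counts of libraries of 1 group differed beyond sampling noise in every pair (lowest chi-square per degree of freedom 20.5). Genes were tested on log2(value + 1) by two-sided moderated tests with a trended prior in limma 3.58.1 under R 4.3.3, for genes at 1 or more in at least 5 libraries. Fold changes on this scale understate those of low genes. A count test on the recovered reads, edgeR 4.0.16, called 2909 genes higher and 1967 lower of 15839. DESeq2 1.42.0, other scalings, pseudocount and filter, a covariate and left-out libraries were further alternatives. The fit was tested on simulated data. These had the same dispersion for every gene and no admixed tissue, unlike the libraries here. The 8 within-library differences used exact permutation over the libraries. Exon lengths came from GENCODE by symbol. Promoters came from RefSeq on another build, GRCm38.p6.

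The genes, lists, differences and tests were chosen with earlier results of these data known. All 31 genes are described. Of the 33 further complement genes, the 4 with the smallest p and the falls are named with values. Marker lists covered macrophages, neutrophils, fibroblasts, smooth muscle, white and brown adipocytes, hepatocytes, mesothelium and, added later, cardiomyocytes and airway epithelium.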

Additional observations from a re-analysis of the deposited data

Results flagged for a closer look

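Within the groups, 4 values of complement genes stood far from the other libraries of their group by Dixon's test, out of 62 groups of values tested, and chance alone would single out about 1 in 20. C8g was at 77.5 in cPTAA 9, above the other aneurysms. Vtn was at 163 in cPTAA 9, above the other aneurysms, and at 51.2 in sham 11, below the other sham libraries. Vsig4 was at 34.8 in sham 1, above the other sham libraries. The library cPTAA 9 also had the highest cardiomyocyte marker sum, 156759.7, and sham 11 carried airway epithelial markers at 20883. Their part in these values was not tested.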

How the results depend on the processing

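Of the 20 complement genes called, 6 kept their call in all 21 alternatives and 17 in all but the brown adipocyte covariate, the exceptions being C4b, C6 and C8g. That covariate left 6 complement genes higher and 0 lower, 1 and 0 further complement genes, and 276 and 101 of all genes. The count of lower complement genes was 1 by edgeR with either scaling, without a filter and without sham 8 and sham 11, and 1 to 4 when each library was left out in turn (4 without sham 8). The count of lower further complement genes was 1 by limma with TMM scaling, by edgeR with totals and by limma without a filter, 0 without sham 8 and sham 11, and 0 to 2 over single libraries left out. All lower genes numbered 1574 without sham 8 and sham 11. Leaving out sham 8 and sham 11 was chosen after seeing the data.

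Without cPTAA 6, 7 and 9 and sham 8, 70 splits give no p below 0.0286, and the within-library differences that no longer passed were C6 minus C7 (3.57), C3ar1 minus C3 (3.03), Cfd minus the white adipocyte score (0.95), C5ar1 minus C5ar2 (1.08), C1qa minus C1s1 (0.50) and C3ar1 minus the macrophage score (0.61). Without sham 8 and sham 11, C5ar1 minus C5ar2 (1.27), C1qa minus C1s1 (0.79) and C3ar1 minus the macrophage score (0.60) did not pass. Over single libraries left out, C1qa minus C1s1 ran from 0.71 to 1.01, Cd55 minus Cd59a from 0.72 to 1.35 and C1qa minus the macrophage score from -0.16 to 0.06.

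Signs of uncalled genes turned as follows. Masp2 was at -0.71 without cPTAA 6, 7 and 9 and sham 8, at -0.20 without sham 8 and sham 11, and at -0.36 to 0.50 over single libraries left out. C3 was at 0.06 with totals, 0.20 without cPTAA 6, 7 and 9 and sham 8, and -0.27 to 0.03 over single libraries. Vtn was at -0.02 without sham 8 and sham 11 and -0.04 to 0.23 over single libraries. With the covariate Cfb was at -0.33, Cd55 at -0.75 and Cd59a at 0.32. The cause was not tested. Masp2 was below edgeR's filter and has no value there. No paired analysis was possible because the groups share no replicate number.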

Other observations

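Among the further complement genes that did not pass are Colec12 and Cr2. Colec12, a scavenger receptor with a lectin domain, was at 2230.5 to 3941 in cPTAA and 2409 to 2953 in sham (limma adjusted p = 0.127). Cr2, the complement receptor of B cells, was at 4.32 to 186 in cPTAA and 1.05 to 10.5 in sham (limma adjusted p = 0.0521), with its highest value in cPTAA 12. These genes were picked for mention after their values were seen.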
